A study of Homo sapiens and Mus musculus with 5 samples.

Results

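Neuro-2a and PC-12 were the 2 rodent lines in which alleles of schizophrenia-linked SNPs were read by a modified STARR-seq assay, and they were compared with each other directly. An allele was included where its plasmid input was above 0 in the tables of both lines, matched by fragment name and allele number, and 1466 of the 1625 alleles of the series met this rule. They belonged to 933 fragments of human DNA around 345 SNPs, and 533 of the fragments were present with both alleles. Alleles with input above 0 numbered 1471 in the Neuro-2a table and 1614 in the PC-12 table, although both draw on the same input. An allele outside the comparison therefore need not be missing from the plasmid library, and why the tables differ was not tested. Up to 3 fragments, here called placements, carried each SNP: they began 50, 100 or 150 bases ahead of it and ran on for 150, 100 or 50 bases. Both groups received the same plasmid library without any further treatment named, and each was 1 established line. Neuro-2a is a mouse neuroblastoma line. PC-12 is a rat pheochromocytoma line, although its organism label reads mouse. The tables hold reporter fragments and no gene of the cells themselves, so neither line could be checked against its markers. SNPs are named by position. Genes were assigned on GRCh38.p14 and are right only if the positions use that build, which the sources used here do not state.

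In STARR-seq a DNA fragment is cloned where it is transcribed itself, so an enhancer raises the amount of its own RNA. Enhancers act through the transcription factors that a cell contains, and the same fragment can therefore be read differently in different cells. Neuro-2a cells derive from a tumour of immature sympathetic neurons and are widely used to study neurite growth. PC-12 cells derive from chromaffin cells of the adrenal medulla, make catecholamines and become neuron-like with nerve growth factor. In the values below, the genes beside a SNP are landmarks, and their own expression was not measured.

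Neuro-2a had 3 RNA libraries, numbered 1 to 3, and PC-12 had 2, numbered 1 and 3. Over the 1466 alleles, RNA totals lay between 5868653 and 7054228 counts in Neuro-2a and were 7759416 and 7417741 in PC-12. Levels are given as CPM, counts scaled to the library total after adjustment by the trimmed mean of M values (TMM). The input counts of the 1466 alleles were the same in both tables, so the input cancels from the difference between lines. That difference is the log2 ratio of PC-12 to Neuro-2a, fitted with the replicate number as a block. It is positive where PC-12 was higher. Replicate 2 of Neuro-2a has no PC-12 partner, so the difference and its standard error (SE) rest on 2 pairs of libraries, those numbered 1 and 3. The SE was derived from the difference and the edgeR test statistic, so it is no measure separate from the p-value. It also draws on the spread over all rows of the fit. Nothing in the labels ties libraries of the same number to a day or a batch.

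By correlation, each library numbered 1 or 3 was closer to that number in the other line than to any library of its own line. Activity, the log2 ratio of RNA to input, correlated at r = 0.532 between the replicates 1 of both lines and at 0.66 between the replicates 3, across the 1175 alleles with no count of 0 in any of the 5 RNA libraries. Within Neuro-2a, replicate 1 correlated at 0.343 with replicate 2 and at 0.336 with replicate 3, while replicates 2 and 3 correlated at 0.625. Within PC-12 the 2 libraries correlated at 0.5. Replicate 2 of Neuro-2a was as close to replicate 3 of PC-12 (0.649) as to replicate 3 of its own line. These correlations are across alleles, which share their input and are not independent.

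No single allele passed the threshold between the lines. The quasi-likelihood test of edgeR, adjusted by Benjamini-Hochberg, called 0 of 1466 alleles (0%) at an adjusted p of 0.05, and the lowest adjusted p was 0.915. At an unadjusted p under 0.05 there were 54 alleles (3.68%), limma-voom called 0 and DESeq2 called 104 higher and 94 lower in PC-12. The test had 1 residual degree of freedom per allele. Among the 1175 alleles with no 0, the median size of the difference was 0.44 and its median SE was 0.44, and 981 alleles (83.5%) differed by less than 1 on the log2 scale. The 95% interval of the difference lay between -1 and 1 for 102 of them, and for the others it reached a 2-fold difference in at least 1 direction. The replicate 1 difference and the replicate 3 difference of an allele, which share no RNA library, had the same sign for 691 of the 1175 alleles (58.8%) and correlated at r = 0.205.

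Counts of 0 were common. A 0 in at least 1 of the 5 libraries was held by 291 alleles (19.8%): 188 only in Neuro-2a, 43 only in PC-12 and 60 in both lines. In 27 alleles the 0 fell in replicate 3 of both lines and in 7 in replicate 1 of both. All 50 of the largest fitted differences belonged to alleles with a 0, and none of these passed the threshold. With the alleles holding a 0 left out, edgeR called 13 of 1175 alleles (1.11%), 7 higher and 6 lower in PC-12, and 12 of the 13 had libraries that did not overlap between lines. Over the 1175 alleles, 217 (18.5%) did not overlap, 119 with PC-12 above and 98 with PC-12 below. The 13 were called from these same libraries, so their separation is no separate evidence.

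Summed over all members of a SNP, the counts separated the lines more often. EdgeR called 45 of 345 SNPs (13%), 27 of them higher in PC-12 (7.83%) and 18 lower (5.22%), with differences of at least 1.45-fold. The difference had the same sign in replicates 1 and 3 for 41 of the 45, beside 61.8% of the 340 SNPs with no 0 in their sums. The fit rests on these same 2 pairs of libraries, so the sign in called SNPs is no separate evidence. DESeq2 called 27 SNPs and limma-voom called 22, and 20 were called by all 3 tools (5.8%), 13 higher and 7 lower in PC-12. These 20 differed by 1.53-fold to 3.65-fold, all had the same sign in both replicates, and 17 had libraries that did not overlap between lines. Over all 345 SNPs, 74 did not overlap, 33 with PC-12 above and 41 with PC-12 below. The 20 were called from these same libraries, so their separation is no separate evidence. The call depends on the block and on the scaling: without the replicate block 0 SNPs passed and the lowest adjusted p was 0.124, and with plain library totals 1 passed. The edgeR fit of the sums took 1 spread for all SNPs, beside 1 residual degree of freedom per SNP. The SEs and edgeR p-values of SNP sums therefore rest on that shared spread. They do not measure the spread between the libraries of each SNP. The SNPs described next are those called by all 3 tools, a choice made after their values were seen.

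Among these 20, the SNPs in or near LETM2, ACE, YWHAB and TBL1XR1 and 1 of those near SNX19 were 2-fold or more higher in PC-12, with every PC-12 library above every Neuro-2a library. The largest difference was at the SNP at position 38401963 of chromosome 8, inside LETM2, a gene of a mitochondrial inner membrane protein. Its summed level was 1476, 2733 and 1723 CPM in Neuro-2a and 5567 and 6095 CPM in PC-12. The difference was 1.87 ± 0.20 (SE), or 3.65-fold, and edgeR gave a Benjamini-Hochberg adjusted p of 1.69e-15. It stood at 1.92 in replicate 1 and 1.82 in replicate 3. Relative to the input the SNP had a mean activity of 0.30 in Neuro-2a and 1.91 in PC-12.

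The SNP at position 63468418 of chromosome 17 lies 8643 bases from ACE, which encodes the angiotensin-converting enzyme. It had 3527, 3989.5 and 5138 CPM in Neuro-2a against 10687 and 9502 CPM in PC-12, a difference of 1.24 ± 0.20 (adjusted p by edgeR 1.81e-07). Its mean activity was -0.42 in Neuro-2a and 0.85 in PC-12. The SNP at position 44907814 of chromosome 20, inside YWHAB, the gene of the 14-3-3 beta adaptor protein, varied little within each line. It had 7092, 6349 and 6278 CPM in Neuro-2a and 14041 and 13074 CPM in PC-12, a difference of 1.02 ± 0.20 (adjusted p by edgeR 2.28e-05). The SNP at position 177010804 of chromosome 3 lies 8540 bases from TBL1XR1, a gene of a corepressor subunit. Its levels were 2016, 2476 and 2060 CPM in Neuro-2a and 4319 and 3982 CPM in PC-12, with a difference of 1.03 ± 0.20. Summed by placement, it stood at 1.57 ± 0.20 with 100 bases in front, but at -0.72 ± 1.08 with 50 and 0.19 ± 0.35 with 150.

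A cluster of 3 neighbouring SNPs near SNX19, a sorting nexin gene, was higher in PC-12. They lie within 1373 bases of each other on chromosome 11, at distances of 17332 to 18705 bases from the gene. The SNP at position 130848735 had 2629, 1819 and 1793 CPM in Neuro-2a and 5905 and 3856.5 CPM in PC-12, with a difference of 1.14 ± 0.20 (adjusted p by edgeR 3.18e-06). The SNP at position 130848918 stood at 0.89 ± 0.20, and both were called by all 3 tools. The SNP at position 130847545 stood at 0.82 ± 0.22 and was called by edgeR alone. Fragments of the SNPs at positions 130848735 and 130848918 can share sequence, so these SNPs are not independent observations. Those of the SNP at position 130847545 do not reach the others.

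The other SNPs higher in PC-12 by all 3 tools were smaller in size or less even between libraries. EPO, the erythropoietin gene, lies 4992 bases from the SNP at position 100715476 of chromosome 7, whose level was 4188, 5295 and 4356 CPM in Neuro-2a and 6342 and 8134 CPM in PC-12 (0.75 ± 0.20). AS3MT, an arsenite methyltransferase gene of the 10q24 risk locus, lies 354 bases from the SNP at position 102869116 of chromosome 10, which stood at 0.82 ± 0.22. The SNP in the kinase gene VRK2, at position 57980939 of chromosome 2, stood at 0.86 ± 0.23. In these 3 the PC-12 libraries were again above all of Neuro-2a. By contrast, the SNP at position 110779397 of chromosome 1, whose nearest gene is the leukocyte tetraspanin gene CD53, had overlapping libraries, with 1105 to 3965 CPM in Neuro-2a and 2587 and 4222 CPM in PC-12. Its difference was 0.25 in replicate 1 and 1.93 in replicate 3. The SNPs in COA8, a cytochrome c oxidase assembly gene, and near MRTFA, a coactivator of serum response factor, also overlapped, at 1.19 ± 0.34 and 0.62 ± 0.20. Without replicate 3 of PC-12, in a fit without the block, the COA8 SNP stood at -0.17. The remaining one, in the zinc finger gene ZSCAN2 at position 84605000 of chromosome 15, stood at 0.70 ± 0.20. In 1 of its members, allele 2 with 50 bases in front, replicate 1 of Neuro-2a had 16.8 CPM against 1535 to 3471 CPM in the other 4 libraries. That member stood at 4.20 ± 2.55, and the others at 0.39 ± 0.20, 0.07 ± 0.46 and -0.37 ± 0.36.

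The other direction, lower in PC-12 and so higher in Neuro-2a, held 7 SNPs by all 3 tools. In each of them both PC-12 libraries lay below all 3 Neuro-2a libraries, as in 41 of all 345 SNPs. The largest difference was that of the SNP at position 48746982 of chromosome 19, which lies 73 bases outside IZUMO1, the gene of a sperm protein that binds the egg. It had 7319, 10729 and 7153.5 CPM in Neuro-2a and 2047 and 4208 CPM in PC-12, a difference of -1.30 ± 0.20 with an adjusted p by edgeR of 6.74e-08. The SNP inside ZNF823, a zinc finger gene, at position 11738921 of chromosome 19, was the most abundant of the 7. It had 13769, 18398 and 20702 CPM in Neuro-2a and 5582 and 11557 CPM in PC-12 (-1.07 ± 0.20). Its mean activity was 0.92 in Neuro-2a and -0.19 in PC-12.

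The SNP inside ZDHHC2, a palmitoyltransferase gene, at position 17178692 of chromosome 8, had 4074, 2225 and 2527 CPM in Neuro-2a and 1812 and 1147 CPM in PC-12 (-1.15 ± 0.22). Inside NT5C2, a cytosolic nucleotidase gene, the SNP at position 103146454 of chromosome 10 had 4203, 5025 and 5521 CPM against 2414 and 2889 CPM (-0.87 ± 0.20). It thus differed in the opposite direction to the SNP beside AS3MT in the same region. The SNPs in SLCO6A1, an organic anion transporter gene, and rs942820, which was not placed on the genome here, stood at -0.68 ± 0.20 and -0.66 ± 0.20. In RASSF1, a tumour suppressor gene, the SNP at position 50336862 of chromosome 3 stood at -0.75 ± 0.20, but this value rests on 1 member. Allele 1 with 50 bases in front had 2453.5, 2304 and 2284 CPM in Neuro-2a and 0 and 93.9 CPM in PC-12. With members holding a 0 left out, the SNP stood at 0.0071.

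The 3 largest called differences of SNP sums were those in TBL1XR1 (position 177072328 of chromosome 3), SLC9B1 and SUFU, at -5.30, 4.53 and 4.56, and each held a library at or near 0. In the first, PC-12 had 1116 CPM in replicate 1 and 0 in replicate 3. At SLC9B1, replicate 1 of Neuro-2a was at 0. At SUFU, Neuro-2a had 685.4, 241.7 and 0.6 CPM and PC-12 had 684.5 and 649.6 CPM. None of the 3 was called by all 3 tools, and in none did the libraries of the lines separate.

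Members of the same SNP differed among themselves, and several of the SNPs above had a line difference in some placements and little in others. Around the LETM2 SNP, allele 2 with 150 bases in front had 439.9, 1309 and 973.5 CPM in Neuro-2a and 1935 and 4004 CPM in PC-12 (2.09 ± 0.21). Allele 2 with 100 bases in front had 309.6, 561.7 and 326.9 CPM against 1719 and 1368 CPM (2.27 ± 0.30), and allele 1 of that placement stood at 2.39 ± 0.36. Allele 2 with 50 bases in front had 346.3, 696.9 and 325.0 CPM in Neuro-2a and 237.9 and 275.3 CPM in PC-12, a difference of -0.39 ± 0.45 in the other direction. The members with the higher PC-12 values were those that reach further in front of the SNP. At the SNP near ACE, the alleles again stood above 0 with 100 bases in front (0.95 ± 0.23 and 1.15 ± 0.26) and likewise with 150 (1.60 ± 0.27 and 1.96 ± 0.50). With 50 bases in front they stood at -0.38 ± 0.51 and -0.01 ± 0.58.

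The YWHAB SNP had the opposite arrangement. With 50 bases in front its alleles stood at 1.42 ± 0.30 and 1.03 ± 0.20, with 100 at 1.28 ± 0.33 and 1.34 ± 0.21, and with 150 at -0.02 ± 0.40 and -0.06 ± 0.26. Allele 2 with 100 bases in front had 1479, 1247 and 1282 CPM in Neuro-2a and 4119 and 2943 CPM in PC-12, whereas with 150 bases in front it had 1078.5, 1126.5 and 1005 CPM and 1184 and 847.4 CPM. The ZNF823 SNP was graded: its 2 alleles stood at -1.61 ± 0.34 and -1.63 ± 0.38 with 50 bases in front, at -0.90 ± 0.46 and -1.21 ± 0.22 with 100, and at -0.27 ± 0.20 and -0.18 ± 0.36 with 150. Allele 2 with 50 bases in front had 4857, 3894 and 4642 CPM in Neuro-2a and 1088 and 2173 CPM in PC-12. In the NT5C2 SNP the value furthest from 0 was that of allele 1 with 100 bases in front, at -1.70 ± 0.23, from 1587, 2526 and 2130.3 CPM in Neuro-2a to 535.2 and 595.8 CPM in PC-12. In MAU2, which encodes a cohesin loader, the SNP lies at position 19329257 of chromosome 19. Its allele 2, starting 150 bases ahead, had 149.8, 242.7 and 484.7 CPM in Neuro-2a and 15.3 and 27.8 CPM in PC-12 (-3.70 ± 0.97), while allele 2 with 50 bases in front stood at -0.09 ± 0.19. None of these single alleles passed the threshold over all 1466 alleles.

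Whether placements of a SNP differed in their line difference was tested in 1 fit over the 258 SNPs with all 3 placements. EdgeR called 0 (0%) with Benjamini-Hochberg adjustment, and 15 had an unadjusted p under 0.05. Among the 210 SNPs with no 0 in these sums it called 3 (1.43%), those in LETM2 and MAU2 and the SNX19 SNP at position 130848735, each with an edgeR adjusted p of 0.0262. The test was added after the pattern had been seen. The summed SNX19 SNP stood at 0.90 with 50 bases in front, 1.67 with 100 and -1.86 with 150. In the fit over 258 SNPs, unadjusted p-values by edgeR were 0.00607 for the ACE SNP, 0.0213 for NT5C2, 0.0389 for YWHAB and 0.117 for ZNF823. In the fit over 210 SNPs, edgeR gave them 0.00202, 0.0177, 0.0269 and 0.092 in the same order.

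Across all members, the 2 alleles of a fragment had line differences of the same sign in 61.3% of 351 fragments with no 0 and correlated at r = 0.28. The same allele in neighbouring placements, which share all but 50 of their bases, correlated at 0.14 (50 and 100 bases in front) and 0.148 (100 and 150). The outer placements, which share less sequence, correlated at -0.0398 over 233 pairs. The replicate 1 difference of an allele and the replicate 3 difference of the other allele of the fragment, which share neither library nor counts, correlated at 0.164 over 702 values. These are descriptions across alleles. Of the 170 SNPs with at least 4 members with no 0, 34 had all members on the same side, and so did 13 of the 27 called among them. The members had decided those calls, so the second count is no separate evidence.

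In each direction, the 10 alleles of smallest unadjusted p were taken among those with no 0 and the same sign in both replicates. These 20 alleles came largely from the SNPs above. Besides the members already given, those with a negative difference included allele 1 near the protocadherin alpha gene PCDHA1, a neuronal adhesion gene. It had 592.3, 1857 and 1001 CPM in Neuro-2a and 248.2 and 453.4 CPM in PC-12 (-1.20 ± 0.27). In SEPTIN3, a neuronal septin gene, allele 1 at position 41974987 of chromosome 22 had 817.6, 559.5 and 590.1 CPM against 288.5 and 192.0 CPM (-1.56 ± 0.38). In YWHAE, the gene of 14-3-3 epsilon, an allele stood at -0.83 ± 0.21. Their unadjusted p by edgeR lay between 0.0249 and 0.036, and none passed after adjustment.

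Among alleles with at least 100 input counts, the 5 highest above the input over both lines differed more by replicate than by line. The highest of them lay near ZSCAN2 at position 84581411 of chromosome 15 (allele 2, 100 bases ahead) and had activities of 0.49, 4.82 and 4.64 in replicates 1, 2 and 3 of Neuro-2a and of 2.03 and 5.59 in replicates 1 and 3 of PC-12. Allele 1 in ANKRD63, an ankyrin repeat gene, had -0.98, 5.16 and 4.90 in Neuro-2a and 1.15 and 4.81 in PC-12. The other 3, near MAU2 and in the dipeptidase gene DPEP1, also had replicate 1 lowest in both lines. Their line differences lay between -0.19 and 1.25, with SEs of 0.29 to 0.75. The 5 alleles furthest below the input had negative activity in every library, evenly in some and unevenly in others. Allele 1 in MANBA, the beta-mannosidase gene, had -5.82, -4.98 and -4.99 in Neuro-2a and -6.61 and -4.56 in PC-12, and allele 1 in PLCL1, a phospholipase C-like gene, lay between -3.70 and -3.51 in Neuro-2a and at -4.48 and -4.28 in PC-12. Their levels were at most 109.5 CPM, and their line differences of -0.18 ± 1.79 and -0.70 ± 1.84 have 95% intervals that reach past 5 in both directions. By contrast, allele 1 near BORCS7, a lysosome positioning gene, had -1.83 in replicate 1 and -8.86 in replicate 3 of PC-12, and allele 1 near NMUR2, a neuromedin U receptor gene, ran from -2.84 to -8.79 in Neuro-2a.

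In PPP2R3A, which encodes a regulatory part of a serine/threonine phosphatase, the most active allele had overlapping libraries. This was allele 2 of the placement with 100 bases in front, around position 136050568 of chromosome 3. It had 4381, 12849 and 12165 CPM in Neuro-2a and 6106 and 14310 CPM in PC-12, a difference of 0.36 ± 0.17 with a 95% interval of -0.22 to 0.94. The alleles of the placement starting 150 bases ahead stood at 0.95 ± 0.19 and 0.78 ± 0.27, and those starting 50 bases ahead at -0.83 ± 0.29 and -0.73 ± 0.53, none past the threshold. In the protocadherin gamma cluster, allele 1 of the placement starting 150 bases ahead had activities of 4.89 to 6.29 in Neuro-2a and of 5.71 and 5.15 in PC-12, from a mean of 68.3 counts in the input. In the OSBPL10 and ZNF860 fragment with 50 bases in front, allele 1 had 598.2, 1138 and 964.9 CPM in Neuro-2a, and 8.9 CPM in replicate 1 but 1496 CPM in replicate 3 of PC-12.

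Called SNPs were spread over the groups of fragments. Of 219 SNPs inside a protein-coding gene, 13 were higher and 14 lower in PC-12, and of 106 outside, 14 were higher and 3 lower, beside 7.83% higher and 5.22% lower over all SNPs. The median difference of SNPs was 0.006 inside and 0.042 outside genes. In transcription factor and chromatin genes, 1 of 15 SNPs was higher (in ZSCAN2) and 3 were lower (in ZNF823, MAU2 and TCF20), with a median of -0.036 against 0.012 over all SNPs. Inside CNNM2, NT5C2 and WBP1L, the genes of the 10q24 list with a SNP in them, 0 of 4 SNPs was higher and 1 lower (NT5C2), with a median of -0.0027. The list leaves out the called SNPs beside AS3MT and in SUFU, given above, which lie in the same region. Both had a positive difference, but the SUFU SNP had a Neuro-2a library near 0 and its libraries did not separate by line. No SNP was called by edgeR in the calcium channel genes CACNA1C and CACNA2D2 (2 SNPs, median -0.29), the protocadherin gamma cluster (1 SNP, -0.14) or the splicing factor gene SF3B1 (1 SNP, 0.076). In these lists 0 alleles had an unadjusted p under 0.05. Median differences were 0.0034, 0.022 and 0.048 for placements with 50, 100 and 150 bases in front, and 0.042 and -0.0047 for alleles 1 and 2, over members with no 0.

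Differences were larger in size among rare members. Of the 367 alleles rarest in the input, 207 had no 0, their median difference was 0.59 in size, and 51.7% had the same sign in both replicates. Of the 367 most abundant in the input, 341 had no 0, the median size was 0.36 and 62.8% had the same sign. Of the 54 alleles with an unadjusted p under 0.05, 33 were among the most abundant and 1 among the rarest.

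The same fits were made for 3 other pairs of lines, some of which share libraries with this one. SNP sums called by edgeR numbered 18 of 345 for Neuro-2a with SH-SY5Y, 9 of 347 for SH-SY5Y with PC-12 and 0 of 345 for SH-SY5Y with HEK-293T, beside the 45 between Neuro-2a and PC-12. SH-SY5Y is a human neuroblastoma line and HEK-293T a human embryonic kidney line. No allele was called in any of the 4 pairs, and those with an unadjusted p under 0.05 numbered 115, 84, 32 and 54 in the same order. Over alleles with no 0, the SD of the replicate 1 difference was 1.09, 0.842 and 0.723 in those 3 pairs and 0.925 between Neuro-2a and PC-12. The SD of the replicate 3 difference was 1.22, 1.08 and 0.754 against 1.28, so the order of the pairs differed by replicate. The numbers of libraries differ, and whether the pairs themselves differ was not tested.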

How the data were processed

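The authors deposited unnormalized read counts, as whole numbers for every allele of a fragment, in each RNA and plasmid input library, per the file headers. Per the labels' protocols the library was transfected in triplicate, and replicate 2 of PC-12 was not analysed here. The submitters' processing notes name limma 3.40.6; no aligner, counting tool or build is named in the sources used here. Whether replicates were separate cultures is not stated beyond the word biological, so p-values refer only to the spread between these libraries. EdgeR pooled that spread in part over alleles and, for SNP sums, wholly over SNPs.

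Counts were scaled by TMM and tested in R 4.3.3 with edgeR 4.0.16 (quasi-likelihood, two-sided, mean count of at least 10, which every allele met), with line and replicate number (1, 2, 3) as terms and Benjamini-Hochberg adjustment over all rows. DESeq2 1.42.0 and limma-voom (limma 3.58.1) were alternatives. Replicate 2 has no PC-12 partner, so the block leaves 2 pairs. Scripts were tested on simulated data. PCR reads are not independent molecules, and depth bounds the counting error only. No pair of libraries agreed within sampling noise (chi-square per degree of freedom of at least 577). The members, lists and alternatives were chosen with earlier results of these data known. Alleles were named by a fixed rule: the 10 smallest p in each direction with no 0 and the same sign in replicates 1 and 3, and the 5 highest and 5 lowest activities with at least 100 input counts. Genes came from the RefSeq table of GRCh38.p14, which places 325 of the 345 SNPs, the other 20 being named by rs number. No fragment sequence was used here. The result of 1 further gene list is not reported here.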

Additional observations from a re-analysis of the deposited data

How the results depend on the processing

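Per allele the count of 0 held under no replicate block, other scalings, filters and thresholds, limma and limma-voom, and became 198 with DESeq2, 202 with RNA and input in 1 fit, 13 with alleles holding a 0 left out and 45 with SNPs summed. Leaving out 1 RNA library gave 0 to 1 (1 without PC-12 replicate 3), in fits without the block, since the block could then be fitted only without Neuro-2a replicate 2. With that library left out and the replicate block kept, 2 pairs remained and 0 alleles and 32 SNPs were called.

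The count of 45 SNPs became 0 with no replicate block, 6 with a block of 2 levels (replicate 1 against the others), 27 with DESeq2, 22 with limma-voom, 20 with DESeq2 size factors, 8 with upper quartile scaling and 1 with library totals. It was 0 to 5 (5 without Neuro-2a replicate 1) with both the block and 1 library left out, against 0 with the block alone left out. These alternatives for SNPs, and the placement test that went from 0 to 3 without sums holding a 0, were chosen after the data were seen. The cause was not tested. The RASSF1 SNP turned to 0.0071 without members holding a 0. Leaving out 1 library (without the block) turned the sign of 1 named allele, that in COA8, between -0.41 and 1.28. It also turned the sign of 10 called SNPs: -0.17 to 1.25 in COA8, -0.51 to 0.77 near ZSCAN2 (chromosome 15, 84581411), -15.4 to 0.49 in TBL1XR1 (3, 177072328), -2.001 to 1.88 in SLC9B1, and, by position, -0.058 to 0.72 (11, 45308670), -0.071 to 1.27 (12, 29775455), -0.10 to 1.13 (2, 73610828), -1.41 to 0.14 (3, 136435986), -0.63 to 1.14 (3, 50889578) and -0.15 to 1.03 (9, 135487010).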
